A study of Mus musculus with 2 samples.

Results

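Glycolysis splits glucose into pyruvate in the cytosol, and gluconeogenesis builds glucose from lactate, glycerol or amino acids by reversing most of those reactions and going round the 3 that cannot be reversed. The kidney is, with the liver, one of the organs known to make glucose, and in the adult kidney that capacity lies in the proximal tubule, while the distal segments and the medulla are known for glycolysis. Most steps are served by small families of isozymes, each member of which is known from the tissue in which it was first described. The 37 enzymes and regulators examined here cover hexokinase to lactate dehydrogenase, the enzymes particular to gluconeogenesis, the first subunit of pyruvate dehydrogenase with its 4 kinases, and the control points of fructose and fructose bisphosphate. They were chosen by gene symbol, with earlier results of these data known, and all 37 were found among the 43346 Ensembl genes of the tables, 21474 of which are protein-coding.

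The data were total RNA-seq of 1 group of 2 samples: whole kidneys of B6NCrl mice on the day of birth (postnatal day 0), with both kidneys of 1 pup in each library and the same mother for both pups. No genotype other than the strain and no treatment is labelled, and the pups' sex was not collected. RNA longer than 200 nt was used, from 10 ng of RNA. With 1 library per pup no test between the pups is possible, and 2 littermates leave 1 residual degree of freedom for a ratio between genes, so no p-values are given; values are given for each pup and as mean ± SD (n = 2); the SD holds the spread within 1 litter only.

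Libraries held 41584961 expected counts in pup 1 and 48823952 in pup 2, of which the 37 genes took 392569 and 434253. Among the 37, counts ran from 52.00 and 42.00 for Hk3 to 54337 in pup 1 and 59356 in pup 2 for Eno1. All 8 kidney markers (Umod, Slc12a1, Slc34a1, Lrp2, Aqp2, Nphs1, Six2 and Ret) were detected in both pups. Skeletal muscle markers summed to 7.860 TPM in pup 1 and 9.340 TPM in pup 2, and fat markers to 0.4700 and 1.330 TPM. TPM is a transcript abundance scaled for length and library size, so it can be set between genes. In these bulk samples, fewer cells of a type and less RNA per cell cannot be told apart.

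Before the levels, the exons that separate the M1 and M2 forms of pyruvate kinase are shown, because they carry the clearest isoform result. Pkm uses 1 of a pair of mutually exclusive exons, each 167 bases long, which lie next to each other on the plus strand of chromosome 9 (GRCm38, GENCODE M21, the source of all gene positions given). The M2 exon, in transcript Pkm-201, is at chr9:59675568-59675734, and the M1 exon, in Pkm-202, is at chr9:59675029-59675195. The exons, written 5′ to 3′, share 61.7% of their bases, and capitals mark the 64 positions at which they differ.
PKM2: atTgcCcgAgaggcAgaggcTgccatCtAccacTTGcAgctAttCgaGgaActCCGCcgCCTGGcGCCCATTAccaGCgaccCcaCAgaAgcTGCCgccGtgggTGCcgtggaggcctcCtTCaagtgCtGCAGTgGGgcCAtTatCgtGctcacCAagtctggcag
PKM1: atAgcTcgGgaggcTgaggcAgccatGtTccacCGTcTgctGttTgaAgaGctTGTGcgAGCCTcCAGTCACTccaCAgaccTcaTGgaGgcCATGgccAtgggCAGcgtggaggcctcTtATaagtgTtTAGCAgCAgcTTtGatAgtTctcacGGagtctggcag

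Nearly the whole pathway was transcribed in the newborn kidney. With detection set at 1 TPM in both pups, 36 of the 37 genes (97.3%) were detected, against 61.5% of all protein-coding genes. Hk3 was the gene below that level. At 100 TPM or more in both pups stood 12 of the 37 (32.4%), against 6.80% of all protein-coding genes. The median gene of the set had 48.05 ± 6.689 TPM, which was the level of Pcx, beside a median of 4.728 TPM over all protein-coding genes and 17.84 TPM over those detected. Together the 37 genes held 8539 TPM in pup 1 and 7758 TPM in pup 2, or 0.8539% and 0.7758% of all transcripts.

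**Figure D1:**
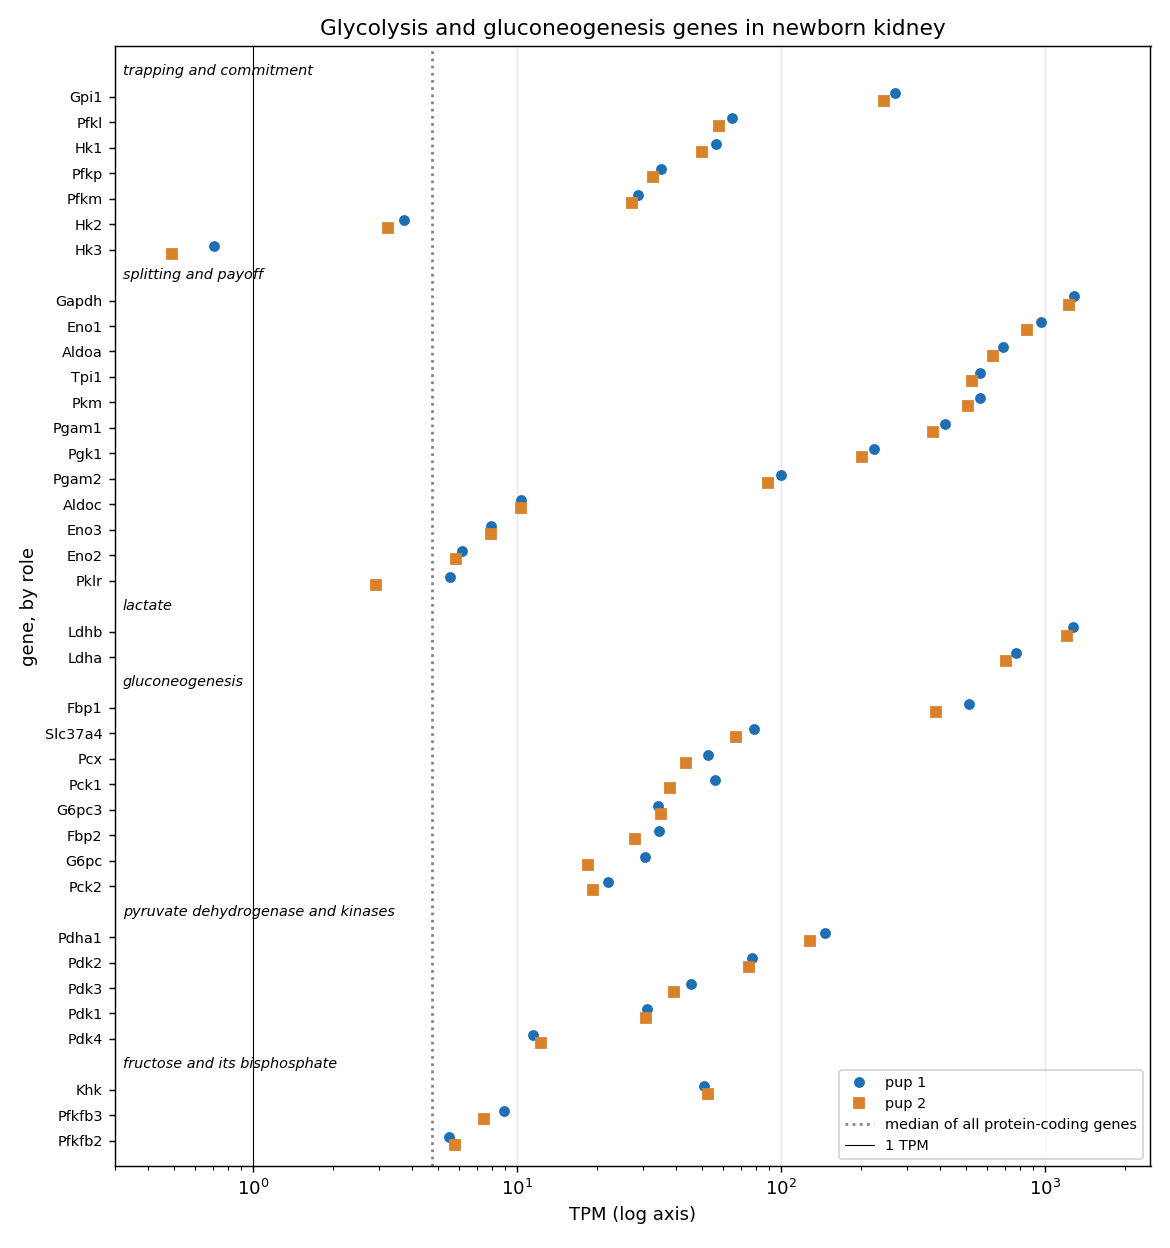
Level of each gene in TPM (log axis), grouped by role and ordered by mean within a role, with circles for pup 1 and squares for pup 2. The dotted line is the median of all protein-coding genes at 4.728 TPM, and the solid line is 1 TPM, below which only Hk3 lies.

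By mean TPM, 2 genes were at 1000 TPM or more, 10 between 100 and 1000, 18 between 10 and 100, 6 between 1 and 10, and 1 below. In the order of levels, the ranges of the pups overlapped for 17 of the 36 pairs of neighbours, so the order is not resolved there. Gapdh and Ldhb overlapped at the top, as did Tpi1, Pkm, Fbp1 and Pgam1 from each to the next, while Eno1, Ldha and Aldoa were separate from their neighbours below.

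Among the enzymes that trap glucose and commit it to glycolysis, Hk1 led the hexokinases and Pfkl the phosphofructokinases. Hk1, the hexokinase of most tissues, had 56.52 TPM in pup 1 and 50.14 TPM in pup 2. Hk2, the hexokinase known from muscle and fat, had 3.730 and 3.230 TPM. Hk1 was thus 14.9-fold above Hk2, a log2 ratio of 3.90 ± 0.0208 (SD, n = 2). With all counts of each gene placed on its leading coding transcript, an alternative chosen after seeing the data, the ratio was 27.0-fold, or 4.75 ± 0.0959 on the log2 scale.

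Hk3, known from leukocytes, had 0.7100 TPM in pup 1 and 0.4900 TPM in pup 2, from 52.00 and 42.00 expected counts. The 7 leukocyte markers, all detected, summed to 203.6 and 201.8 TPM, and their part in the Hk3 reads was not tested. Gpi1, which turns glucose 6-phosphate into fructose 6-phosphate, was the most abundant gene of this stage, with 268.2 TPM in pup 1 and 243.7 TPM in pup 2.

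All 3 subunits of phosphofructokinase, the committing enzyme of glycolysis, were present at levels of the same order. Pfkl, the liver-type subunit, had 64.82 TPM in pup 1 and 57.95 TPM in pup 2. Pfkp, the platelet type, had 35.06 and 32.55 TPM, and Pfkm, the muscle type, had 28.63 and 27.07 TPM. The ranges of these subunits did not overlap. Pfkl exceeded Pfkm by more than 2-fold in both pups, with a mean log2 ratio of 1.14 ± 0.0572, but exceeded Pfkp by only 0.86 ± 0.0385, short of that threshold. Pfkp stood 0.28 ± 0.0186 above Pfkm on the log2 scale. The gene Pitrm1 on the opposite strand, with 46.84 TPM in pup 1 and 44.12 TPM in pup 2, overlaps 5.58% of the exon bases of Pfkp. With no counting strand given, reads of Pitrm1 there cannot be told apart from those of Pfkp.

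The steps that split fructose bisphosphate and recover ATP were the most abundant stage, with 4832 TPM in pup 1 and 4445 TPM in pup 2 over 12 genes. Gapdh, glyceraldehyde-3-phosphate dehydrogenase (chromosome 6, 125161715 to 125166467, minus strand), had 1282 TPM in pup 1 and 1229 TPM in pup 2. Eno1, the enolase of most tissues (chromosome 4, 150236721 to 150248879, plus strand), had 962.4 and 853.3 TPM. Aldoa, the aldolase of most tissues and muscle (chromosome 7, 126795234 to 126800751, minus strand), had 690.8 and 633.3 TPM. The ranges of these 3 genes over the pups did not overlap.

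Tpi1, triosephosphate isomerase, had 564.0 TPM in pup 1 and 528.1 TPM in pup 2. Pgk1, phosphoglycerate kinase, had 223.7 and 201.4 TPM. Pgam1, the phosphoglycerate mutase of most tissues, had 416.7 and 375.4 TPM. All 3 stood above 200 TPM in both pups, and Pgk1 was the lowest of the broadly expressed genes of this stage.

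Aldoc, Eno2 and Eno3 were low. Aldoc, known from brain, had 10.35 TPM in pup 1 and 10.34 TPM in pup 2. Aldoa exceeded it by a log2 ratio of 5.98 ± 0.0877. Eno2, the neuronal enolase, had 6.190 and 5.830 TPM, and Eno3, the muscle enolase, had 7.960 and 7.950 TPM. Eno1 was 148-fold above Eno2 and 113-fold above Eno3. Neuron and glia markers, of which 3 of 5 were detected, summed to 11.76 TPM in pup 1 and 10.35 TPM in pup 2, and the part of such cells in Eno2 and Aldoc was not tested.

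Pgam2, known as the muscle phosphoglycerate mutase, had 99.78 TPM in pup 1 and 88.72 TPM in pup 2, from 1 annotated transcript, and Pgam1 was only 4.20-fold above it (log2 ratio 2.07 ± 0.0132). The muscle creatine kinase Ckm had 0.6600 and 0.7900 TPM, Myh3 had 0.05000 and 0.01000 TPM, and the muscle regulator Myog was at 0 in pup 1 and 0.06000 TPM in pup 2. Of the 7 skeletal muscle markers 3 were detected. In pups 1 and 2, Mylpf had 2.310 and 4.290 TPM, Tnnt3 2.830 and 2.740 TPM, and Acta1 1.970 and 1.420 TPM. All 7 together summed to 7.860 TPM in pup 1 and 9.340 TPM in pup 2, and the part of muscle cells in Pgam2 was not tested. No window of 50 bases of Pgam2 was shared with another annotated gene.

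Lactate dehydrogenase, which turns pyruvate into lactate and back, was high in both of its subunits. Ldhb, the heart-type subunit (chromosome 6, 142490249 to 142507957, minus strand), had 1273 TPM in pup 1 and 1203 TPM in pup 2. Ldha, the muscle-type subunit (chromosome 7, 46841475 to 46855627, plus strand), had 776.1 and 709.4 TPM. Ldha stood below Ldhb by a log2 ratio of -0.74 ± 0.0341, a difference larger than the spread between pups but short of 2-fold. The testis form Ldhc had 0.05000 TPM in pup 1 and was at 0 in pup 2.

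Pyruvate kinase was nearly all Pkm. Pkm had 562.8 TPM in pup 1 and 509.6 TPM in pup 2, against 5.530 and 2.920 TPM for Pklr, the gene of the liver and red cell forms. Pkm was 130-fold above Pklr (log2 ratio 7.02 ± 0.534). Within Pkm, the M2 transcript Pkm-201 held 95.86% of TPM in pup 1 and 96.33% in pup 2, or 539.5 and 490.9 TPM. The M1 transcript Pkm-202 held 4.140% and 3.670%, or 23.32 and 18.72 TPM. The M2 form is known from embryonic and proliferating tissue, and from the adult kidney, and the M1 form from muscle and brain. The 64 positions shown above are what tells reads of the exons apart, and the deposited intervals of the transcripts, 523.3 to 535.3 TPM for M2 and 19.86 to 25.64 TPM for M1 in pup 1, lie far from each other. The deposited intervals surround the posterior mean, so a TPM value can lie just outside its own interval, and their level is not stated in the files.

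Pklr has alternative first exons, of which the upstream one, in Pklr-201, is known from red cells and the downstream one, in Pklr-202, from liver. In pup 1 Pklr-202 had 2.900 TPM and Pklr-201 had 1.400 TPM. In pup 2 Pklr-202 had 2.920 TPM and Pklr-201 was listed at 0. The interval of Pklr-201 ran from 0.0006467 to 2.796 TPM in pup 1 and up to 1.188 TPM in pup 2, so the intervals overlap and the use of the upstream exon is not settled at this depth. Erythroid markers summed to 4607 TPM in pup 1 and 4478 TPM in pup 2 and liver markers to 53.79 and 45.00 TPM, and their part in Pklr was not tested. The gene Hcn3 on the opposite strand, with 0.5900 TPM in pup 1 and 0.7200 TPM in pup 2, overlaps 22% of the exon bases of Pklr. With no counting strand given here, reads of Hcn3 cannot be told apart from those of Pklr there.

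**Figure D2:**
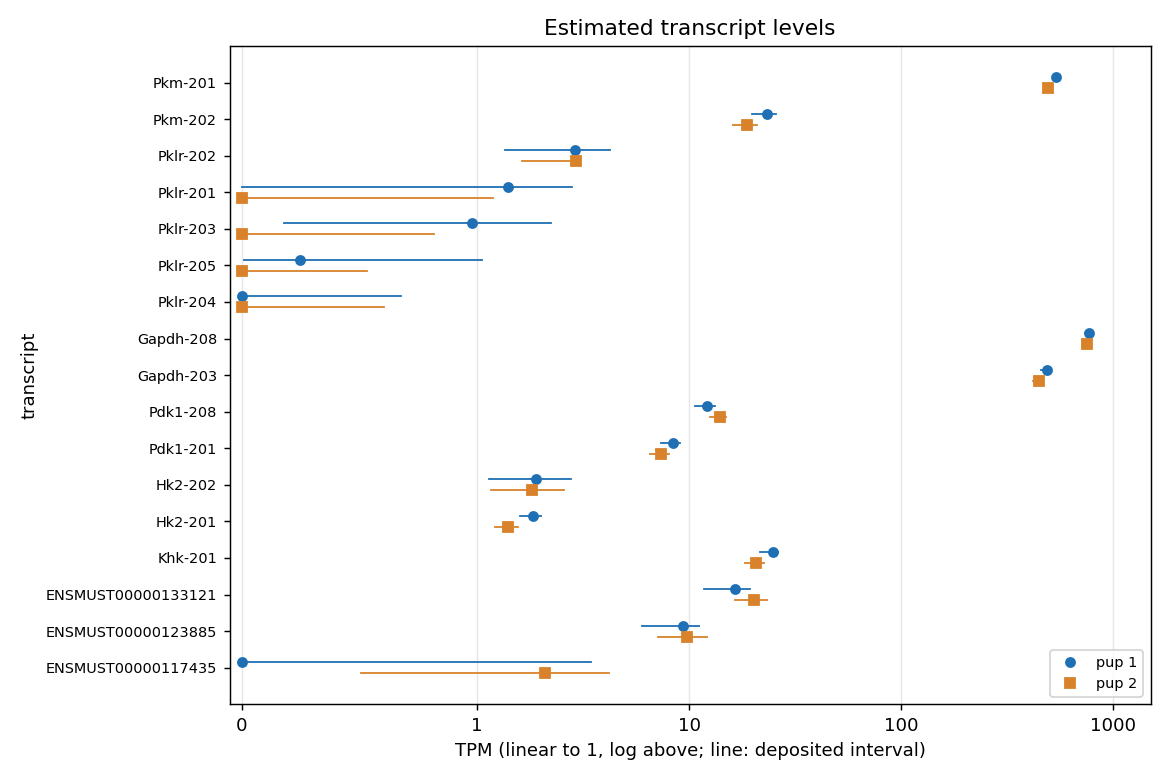
Estimated TPM of the named transcripts of Pkm, Pklr, Gapdh, Pdk1, Hk2 and Khk, with circles for pup 1, squares for pup 2 and lines for the deposited intervals (axis linear to 1 TPM and log above). The M2 transcript Pkm-201 lies above 490 TPM in both pups while Pkm-202 lies near 20 TPM, and the intervals of the Pklr transcripts span most of their range.

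The enzymes of gluconeogenesis were all detected, and Fbp1 stood out among them. Fbp1, the fructose bisphosphatase of liver and kidney (chromosome 13, 62864753 to 62888282, minus strand), had 515.1 TPM in pup 1 and 384.8 TPM in pup 2, in the range of Pkm and Pgam1. It was 7.25-fold above Pfkl, the leading subunit of the enzyme that runs the opposite reaction (log2 ratio 2.86 ± 0.183). The other subunits of that enzyme, Pfkp and Pfkm, are not in this ratio. Fbp2, the muscle fructose bisphosphatase, had 34.24 and 27.96 TPM, and Fbp1 exceeded it by a log2 ratio of 3.84 ± 0.0913.

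The entry and exit steps of gluconeogenesis were lower, with mean levels from 20.64 TPM for Pck2 to 72.94 TPM for Slc37a4. Pcx, pyruvate carboxylase, which makes oxaloacetate in mitochondria, had 52.78 TPM in pup 1 and 43.32 TPM in pup 2. Pck1, the cytosolic phosphoenolpyruvate carboxykinase (chromosome 2, 173153048 to 173159273, plus strand), had 55.91 and 37.69 TPM. Pck2, its mitochondrial counterpart, had 21.98 and 19.30 TPM. The log2 ratio of Pck1 to Pck2 was 1.34 in pup 1 and 0.96 in pup 2, so it passed 2-fold in pup 1 only. Pck1 was far below Pkm, which runs the step that carboxylation and Pck1 go round, at a log2 ratio of -3.54 ± 0.30.

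G6pc, the glucose-6-phosphatase of liver, kidney and intestine (chromosome 11, 101367561 to 101377903, plus strand), had 30.50 TPM in pup 1 and 18.50 TPM in pup 2. G6pc3, the widely expressed glucose-6-phosphatase, had 34.16 and 34.85 TPM. G6pc stood below G6pc3 by log2 ratios of -0.16 in pup 1 and -0.91 in pup 2. The ranges of these phosphatases did not overlap, but neither ratio reached 2-fold. Slc37a4, the transporter that brings glucose 6-phosphate to either phosphatase, had 78.78 and 67.10 TPM. G6pc against Hk1, the opposite reaction, gave log2 ratios of -0.89 in pup 1 and -1.43 in pup 2, past 2-fold in pup 2 only.

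The link from pyruvate to the citric acid cycle was led by the enzyme rather than by its kinases. Pdha1, the catalytic subunit of pyruvate dehydrogenase, had 146.6 TPM in pup 1 and 127.9 TPM in pup 2. All 4 kinases that switch it off were detected. Pdk2, the broadly expressed kinase, was the highest, with 77.60 and 75.31 TPM. Pdk3 had 45.58 and 39.08 TPM, Pdk1, known as a target of hypoxia-inducible factor, 31.06 and 30.72 TPM, and Pdk4, known to rise in fasting, 11.45 and 12.30 TPM. The ranges of the 4 kinases did not overlap. Pdk1 stood below Pdk2 by a log2 ratio of -1.30 ± 0.0193, and Pdk2 exceeded Pdk4 by 2.68 ± 0.103. Pdk1 stood below Pdk3 by -0.45 ± 0.145, short of 2-fold. With counts placed on leading coding transcripts, Pdk1 was at -2.05 ± 0.0131 against Pdk2 and at -1.29 ± 0.123 against Pdk3, past 2-fold in both pups.

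Among the genes of fructose use, Khk, ketohexokinase, had 50.76 TPM in pup 1 and 52.85 TPM in pup 2, and 34.88 and 33.84 TPM with its counts placed on its leading coding transcript. Both listed enzymes that make and break down fructose 2,6-bisphosphate, the activator of phosphofructokinase, were low. Pfkfb3, the inducible form, had 8.870 and 7.480 TPM, and Pfkfb2, known from heart and kidney, had 5.510 and 5.780 TPM. Pfkfb3 exceeded Pfkfb2 by 0.52 ± 0.220 on the log2 scale, short of 2-fold. With all counts placed on leading coding transcripts, Pfkfb3 had 12.94 and 9.989 TPM and Pfkfb2 4.839 and 5.0 TPM. The log2 ratio was then 1.40 in pup 1 and 0.98 in pup 2, past 2-fold in pup 1 only.

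Of 22 pairs of genes set against each other within a pup, the first-named gene was past 2-fold higher in both pups in 11 and past 2-fold lower in 2 (Pdk1 against Pdk2, and Pck1 against Pkm), and 9 did not pass in both. The log2 ratios use TPM + 0.1.

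**Figure D3:**
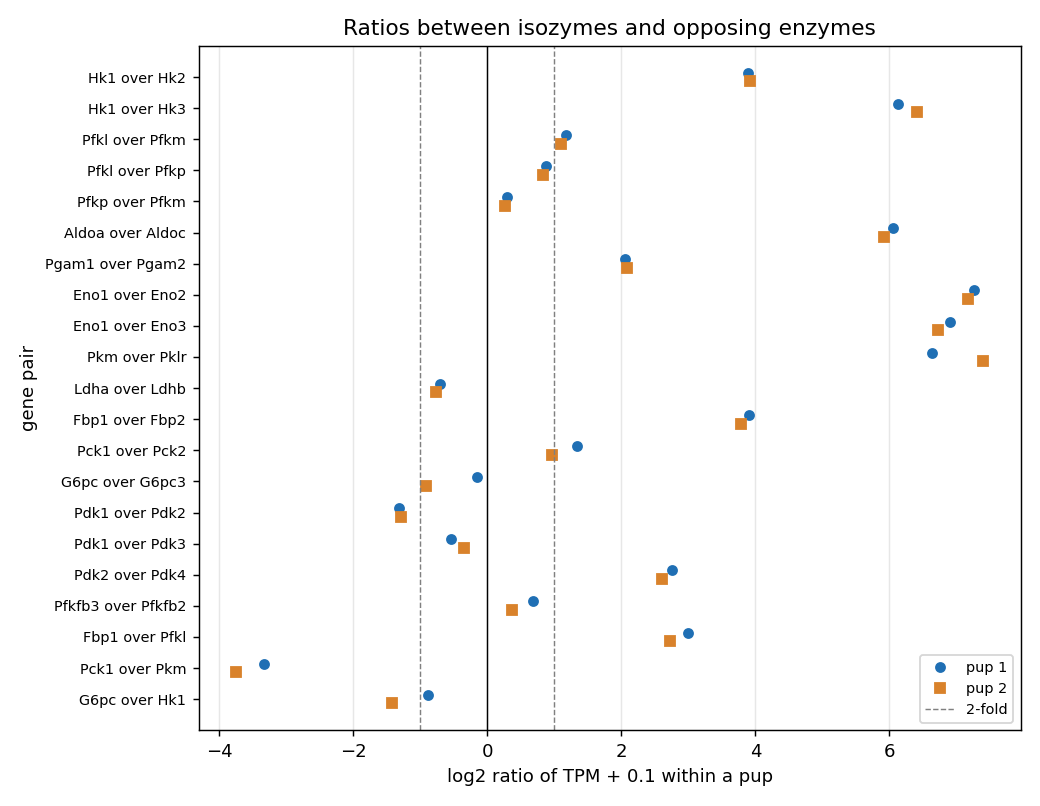
Log2 ratio of TPM + 0.1 between the genes of each pair drawn from the 37, first-named over second-named, with circles for pup 1 and squares for pup 2 and dashed lines at 2-fold. Eno1 over Eno2 at 7.21 is the highest mean ratio and Pck1 over Pkm at -3.54 the lowest.

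The other genes of these pathways that were listed, 34 in all, had a median of 24.61 ± 2.521 TPM, and 29 of them were detected. Tkfc, the triokinase of fructose breakdown, had 41.89 TPM in pup 1 and 31.91 TPM in pup 2, and Sord, sorbitol dehydrogenase, had 118.5 and 101.6 TPM. The malate dehydrogenases Mdh1 (915.8 and 868.6 TPM) and Mdh2 (660.2 and 599.5 TPM), which serve to carry oxaloacetate between compartments as malate, overlapped the ranges of Eno1 and Aldoa over the pups. Of the subunits of the mitochondrial pyruvate carrier, Mpc1 had 366.8 TPM in pup 1 and 398.8 TPM in pup 2, and Mpc2 had 630.2 and 635.7 TPM. Gapdhs and Pgk2, known from sperm, and Eno4 and Ldhc were not detected.

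The TPM of a gene sums its transcripts, and most of these genes were nearly all coding. The share of TPM in transcripts annotated with a coding sequence had a median of 98.69% over the 37 genes and 99.55% over all detected protein-coding genes. Below 50% stood 4 of the 37 (10.8%), namely Gapdh, Hk2, Pdk1 and Khk, against 4.98% of detected protein-coding genes. Khk is there because 3 of its 4 transcripts, with 50.81% of its TPM in pup 1 and 60.86% in pup 2, have no entry in the annotation used, so its A and C forms were not assigned.

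In absolute TPM Gapdh had the most in non-coding transcripts. Gapdh-208, a processed transcript of 483 nt with 4 exons and no coding sequence, held 60.30% of Gapdh TPM in pup 1 and 61.58% in pup 2, or 772.8 and 756.6 TPM. The coding transcript Gapdh-203, of 1420 nt, held 38.00% and 36.20%, or 487.0 and 444.7 TPM. By expected counts the order was the other way, with 8801.52 for Gapdh-208 and 19080.3 for Gapdh-203 in pup 1, since TPM divides by length. All exon bases of Gapdh-208 lie within the exons of Gapdh-203 (100%), so the estimate divides reads that both share. With all Gapdh counts placed on Gapdh-203, Gapdh had 730.2 TPM in pup 1 and 686.0 TPM in pup 2, 0.564 times its gene TPM, and stood at rank 4, below Ldhb, Eno1 and Ldha.

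In Pdk1, non-coding transcripts held 72.89% of TPM in pup 1 and 76.07% in pup 2, of which the most abundant, a processed transcript of 2972 nt with all its exon bases inside those of the leading coding transcript, had 39.22% and 45.70%. With all its counts placed on its leading coding transcript, Pdk1 had 17.09 TPM in pup 1 and 16.94 TPM in pup 2, 0.551 times its gene TPM. The estimate of that transcript itself was 8.420 and 7.350 TPM. In Hk2, the 594-nt processed transcript Hk2-202 held 50.92% and 56.51%, from 27.9000 and 32.9200 expected counts. With all Hk2 counts placed on its leading coding transcript, Hk2 had 2.004 and 1.572 TPM. Eno2 was divided nearly equally, with 48.47% and 49.74% in non-coding transcripts. In Pdk4 the non-coding share was 1.747% in pup 1 and 23.41% in pup 2, and its TPM was higher in pup 2 while its TMM-scaled counts were higher in pup 1, at 27.00 CPM in pup 1 and 24.68 CPM in pup 2.

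**Figure D4:**
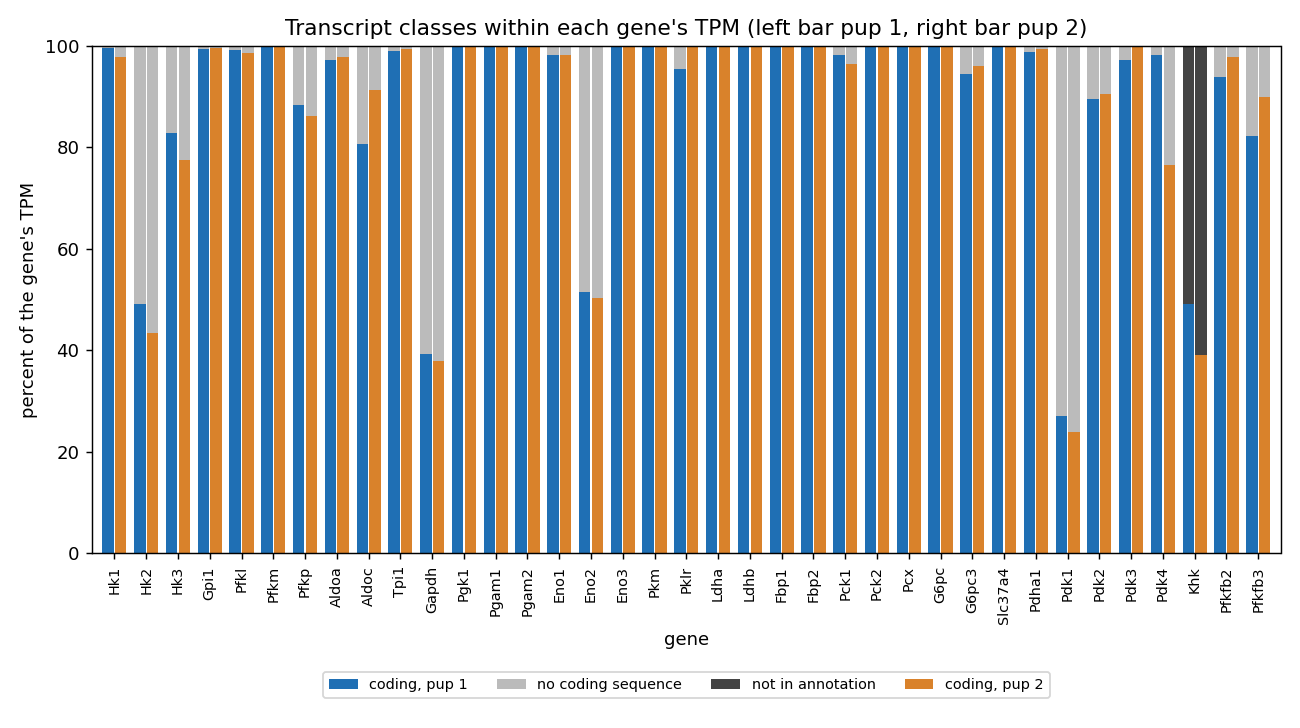
Percent of each gene's TPM in transcripts with a coding sequence (colour), without one (light grey) or absent from the annotation used (dark grey), with the left bar of a pair for pup 1 and the right bar for pup 2. Pdk1, Gapdh, Hk2 and Khk have less than 50% in coding transcripts, averaged over the pups, and in Khk the remainder is absent from the annotation.

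Several genes had TPM in coding transcripts with different starts. Hk1-202 held 72.23% of Hk1 TPM in pup 1 and 70.29% in pup 2, and Hk1-201, which begins further upstream, held 27.19% and 27.34%. Pfkm was divided between Pfkm-201, with 57.99% and 58.76%, and Pfkm-202, with 42.01% and 41.24%. Pcx-202 held 68.34% and 70.21% of Pcx, and Pcx-201, which begins further upstream, the rest. In each of these genes both pups gave the same leading transcript, but the deposited intervals of the Pfkm transcripts overlapped, at 10.91 to 21.23 TPM for Pfkm-201 and 6.964 to 17.44 TPM for Pfkm-202 in pup 1.

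Glycolytic genes have many processed pseudogenes, which bears on how their reads are assigned. Of the 37 genes, 18 shared at least 1 window of 50 bases with another annotated gene. The shared part was 53.9% of windows in Pgk1, 36.2% in Pgam1, 26.0% in Eno1, 25.8% in Pkm, 24.7% in Gapdh and 21% in Ldhb, and 0 in Fbp1, Fbp2, Pck1, Pcx, G6pc, G6pc3 and Slc37a4. The most abundant such pseudogenes were Pgk1-rs7 (36.70 TPM in pup 1 and 38.19 TPM in pup 2), Pgam1-ps2 (37.66 and 32.15 TPM), Gm4735 of Eno1 (33.68 and 34.09 TPM), Gm5514 of Ldhb (14.12 and 16.53 TPM) and Gm10359 of Gapdh (15.56 and 9.560 TPM). All 225 pseudogenes in the tables that share a window summed to 253.4 and 250.0 TPM, against 8539 and 7758 TPM for the 37 genes. Pseudogenes of any kind are counted there, so not all of the 225 are processed copies of the 37 genes. The levels of Pgk1, Pgam1, Eno1, Gapdh and Ldhb are uncertain to the extent that reads were divided between these copies.

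Between the pups, no gene of the set differed by 2-fold, and G6pc, Pck1 and Fbp1 of gluconeogenesis were among the few that differed by over 1.25-fold. Differences are given as the log2 ratio of CPM (counts scaled to library size) + 0.1 after TMM scaling, pup 1 over pup 2, because TPM itself was higher in pup 1 for 71.5% of detected protein-coding genes, with a median log2 ratio of 0.09. On the TMM scale the median over the 37 genes was 0.08, beside 0.00 over all 15150 genes with 50 or more expected counts in either pup. None of the 37 passed 2-fold in either direction, against 0.158% of all genes higher in pup 1 and 0.429% higher in pup 2.

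At 1.25-fold, a threshold added after seeing the data, 5 of the 37 (13.5%) were higher in pup 1, against 3.26% of all genes, and 0 were higher in pup 2, against 6.54%. The 5 were G6pc, Pck1, Pklr, Hk3 and Fbp1. G6pc had 49.98 CPM in pup 1 and 32.25 in pup 2, a log2 ratio of 0.63 with an exact 95% counting interval of 0.54 to 0.73. Pck1 had 100.4 and 71.42 CPM, a log2 ratio of 0.49 (0.43 to 0.56), and Fbp1 had 462.9 and 366.4 CPM, a log2 ratio of 0.34 (0.31 to 0.37). Pklr gave 0.48 (0.26 to 0.71), less than its TPM would give, because its estimated length differed between the pups. With all Pklr counts placed on Pklr-202, Pklr had 4.349 TPM in pup 1 and 2.920 TPM in pup 2. The estimate of Pklr-202 itself was 2.900 and 2.920 TPM. Hk3 gave 0.47 with an interval of -0.10 to 1.14, so its difference was not detectable at this depth. The intervals cover counting error only, not the spread between animals.

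Of the 8 gluconeogenic genes, 7 were higher in pup 1 (87.5%), with a median of 0.20, as were 28 of all 37 genes (75.7%) and 49.4% of all genes tested. Pcx and Fbp2 were at 0.20 each, Slc37a4 at 0.14, Pck2 at 0.10 and G6pc3 at -0.13. The 12 genes of splitting and payoff had a median of 0.06, and Gapdh, Tpi1 and Ldhb lay between -0.01 and 0.00. Aldoc was the lowest of the 37, at -0.20 (-0.37 to -0.02).

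Of the 12 markers of the proximal tubule, all detected and none at 0, 10 were also higher in pup 1, with a median of 0.14 and a range of -0.05 to 0.59. The highest were Miox at 0.59, Slc34a1 at 0.41 and Slc22a8 at 0.37, and the list summed to 1170 TPM in pup 1 and 920.5 TPM in pup 2. Of the 8 kidney markers, 3 were higher in pup 1 and 5 were higher in pup 2, among them Aqp2 at -0.31 and Ret at -0.17. Six2, which marks nephron progenitors, was the lowest of the 8 at -0.80, with 9.210 TPM in pup 1 and 15.11 TPM in pup 2. The liver markers Alb (5.650 and 2.420 TPM) and Ahsg (5.150 and 2.150 TPM) were also higher in pup 1. The part of these cells in the gluconeogenic difference was not tested.

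**Figure D5:**
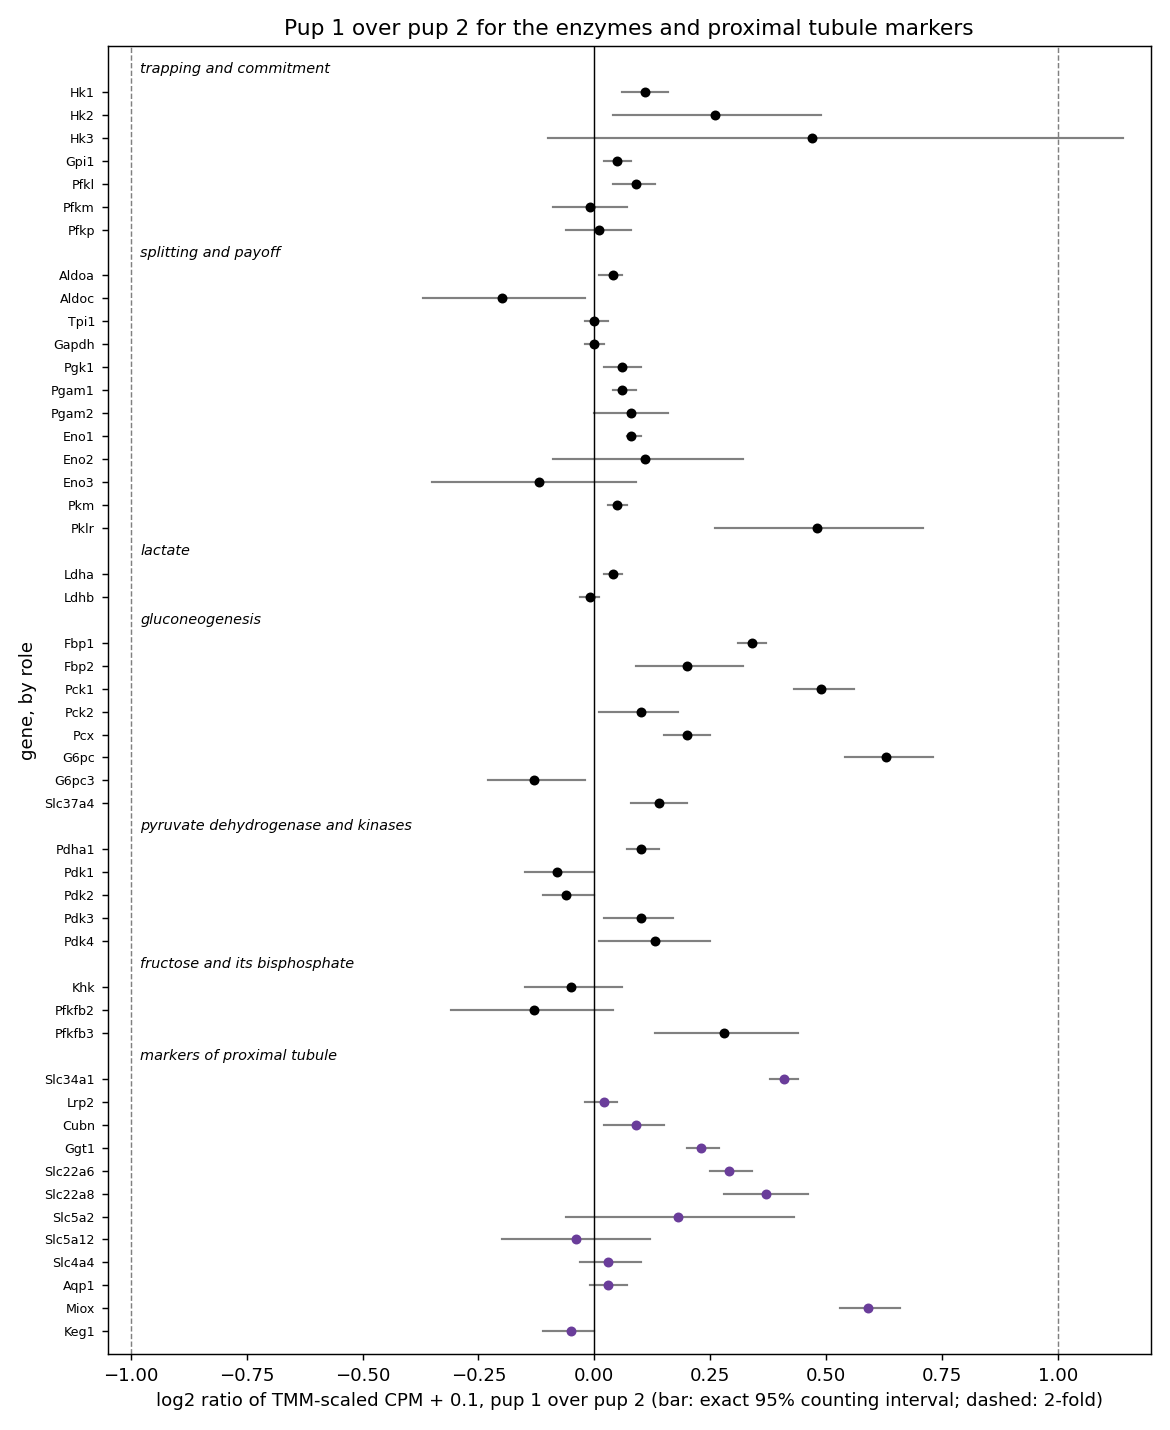
Log2 ratio of TMM-scaled CPM + 0.1, pup 1 over pup 2, for the 37 genes by role and for 12 proximal tubule markers (purple), with bars for exact 95% counting intervals and dashed lines at 2-fold. G6pc at 0.63 is the highest of the 37 genes and Aldoc at -0.20 the lowest, and most glycolytic genes lie close to 0.

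Pck1 and G6pc were the gluconeogenic genes that differed most between the pups. The windows of 250 bases before the starts of the 8 gluconeogenic genes, 11 windows in RefSeq (GRCm38.p6), were therefore searched on both strands. The starts are those of RefSeq. For Pck1 and G6pc they lie downstream of the GENCODE starts given above, so these windows reach into the genes as placed by GENCODE. The search was for kinds of motif known from Pck1 and G6pc. These were the consensus cAMP response element TGACGTCA and its core TGACG, which the consensus contains. The other was GTTAAT, an arm of the site of HNF1, a factor of the proximal tubule and liver. The consensus TGACGTCA was in 0 of the 11 windows, against 1.55% of all 32851 windows of that length. Only exact letters were searched, so variants of the element were not counted. In the Pck1 window the letters at the core read TTACGTCA, which differs from the consensus at 1 base. The core TGACG was in 4 windows, of 3 genes (Pck1, Slc37a4 and Fbp2), against 17.8% of all windows, and GTTAAT was in 2 windows, of Pck1 and G6pc, against 6.43%. In Slc37a4, 2 of the windows overlap and hold 1 site in common, so the TGACG matches come from 4 distinct sites. The kinds of motif were chosen because they are known from Pck1 and G6pc, so their presence there restates that choice. The shares of all windows are given as a description. Pck1 was the 1 gene with both. Its window is shown, at chr2:173152823-173153072 on the plus strand, with the matches in capitals: the HNF1 arm, read from the other strand, begins 192 bases before the start, and the cAMP core, also read from the other strand, 90 bases before it.
Pck1: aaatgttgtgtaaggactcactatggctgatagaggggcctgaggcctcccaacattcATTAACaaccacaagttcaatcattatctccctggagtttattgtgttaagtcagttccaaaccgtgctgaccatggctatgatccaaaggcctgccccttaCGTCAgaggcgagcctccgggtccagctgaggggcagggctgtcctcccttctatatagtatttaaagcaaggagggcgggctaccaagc
A match of letters is a description of the sequence, and no binding was measured here.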

How the data were processed

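For each library, gene and transcript tables were used as deposited. Per the file headers they hold the expected count, TPM and FPKM, posterior means, interval bounds and, for transcripts, the percent of the gene's TPM; these columns are RSEM's. Deposited TPM is scaled to 1 total in each library. The deposited text names mm10 and GENCODE M4. Aligner, software versions and counting strand: not given in the sources used here. Genes were matched without version to GENCODE M21 (GRCm38, the same assembly), which named 42462 of 43346. Features that are no Ensembl gene held 0.000767% and 0.000983% of expected counts in pups 1 and 2 and stayed out of scaling.

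Scaling factors came from edgeR 4.0.16 (TMM) and, as an alternative, DESeq2 1.42.0, on rounded expected counts; tables and intervals were made with Python 3.11.15, pandas 2.3.3 and SciPy 1.17.1. The floor for a gene with no count is 3 counts (0.0721 CPM in pup 1, 0.0614 in pup 2), and floors, like intervals, reflect counting error alone. The ratio formula was tested on simulated data with library totals in place of TMM scaling. All 37 genes and the listed other genes, markers and pseudogenes (at most 5, by level) are named by rule, as are transcripts leading in a gene or at 20% of its TPM, and those of Pkm, Pklr and Khk. The genes and lists were chosen with earlier results of these data known. Alternatives were other units, scalings, filters, pseudocounts and leaving out a pup. A few genes of these lists are counted but not reported here by name.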

Additional observations from a re-analysis of the deposited data

How the results depend on the processing

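The 36 genes detected were 36 under every alternative but detection at 5 TPM, which left 34. The median of the 37 genes was 60.59 TPM when TPM was rescaled to protein-coding genes, against 48.05, and 43.32 and 52.78 TPM without pup 1 and without pup 2. The median coding share was 98.06% from posterior means and 98.90% to 99.33% with a pup left out, against 98.69%. Called pairs numbered 13, and 14 with either pup left out: Pck1 over Pck2 (1.34) passed without pup 2, and G6pc over Hk1 (-1.43) without pup 1. No gene passed 2-fold between pups under any scaling or filter, and at 1.25-fold a prior of 1 CPM lost Hk3 (0.26), leaving 4. The Pkm-201 share was 95.86% to 96.33%. No called value changed direction, but the pup ratios of Pfkm and Ldhb were -0.01 and became 0.01 with library totals. With all counts placed on leading coding transcripts, Gapdh had 708.1 TPM, below Eno1 and Ldha. There Pdk1 over Pdk3 (-1.29) also passed 2-fold. A ratio between pups cannot be had with a pup left out. No paired analysis was possible because there is 1 group.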
